A study of Homo sapiens with 9 samples.

Results

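The respiratory chain of mitochondria was examined at the RNA level in A375 cells, an established line from a human melanoma. Members were all genes whose symbol is that of a subunit of complexes I to V or cytochrome c1, by a pattern over symbols (the NDUFA, NDUFB, NDUFC, NDUFS and NDUFV families, SDHA to SDHD, UQCR, CYC1, COX4 to COX8, ATP5, and the mitochondrial genes MT-ND, MT-CO, MT-CYB and MT-ATP). This gave 103 of 20463 annotated genes, of which 90 are nuclear (39 of complex I, 4 of complex II, 10 of complex III, 17 of complex IV and 20 of complex V) and 13 mitochondrially encoded (7, 0, 1, 3 and 2). The cells were left untreated, or were exposed for 48 h to Salvianolic acid B, a polyphenol of the medicinal sage Salvia miltiorrhiza, at 100 µM or at 200 µM. Each of the 3 groups held 3 libraries of mRNA, described in the labels as biological replicates. Whether they came from separate cultures is not stated, so p-values measure the spread between these libraries. All groups are the same line at 1 time point, the labels name no vehicle for the untreated cells, and poly-T beads were used, which enrich transcripts with an A tail.

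Complexes I to IV pass electrons from NADH and succinate to oxygen, complexes I, III and IV pump protons as they do so, and complex V, the ATP synthase, uses the proton gradient to make ATP. Both genomes build the chain: the mitochondrial genome encodes hydrophobic core subunits of complexes I, III, IV and V, while all other subunits, and the whole of complex II, come from nuclear genes. Mitochondrial mRNAs are cut from long transcripts of each strand and most carry a short A tail, whereas each nuclear gene has its own promoter. Melanoma lines differ in how far they rely on respiration or on glycolysis.

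Nuclear promoters of the chain are known for sites of NRF1, of ETS factors such as GABPA and of YY1. RefSeq promoters (GRCh38.p14, 250 bases before to 50 after the start) were matched for 70 of the 90 nuclear members. The letters TGCGCA, the core of the NRF1 site, were found on either strand in 20 of them (28.6%), against 10.8% of 15843 promoters of coding genes. CCGGAAG, an ETS core, was found in 20 (28.6% against 14.2%), and AAGATGG, a YY1 core, in 16 (22.9% against 6.40%), so that 39 of 70 held at least 1 of the 3. A match describes the letters and does not show binding. The stretches below show the 120 bases before the RefSeq start of 5 members described later whose windows hold such letters, on the plus strand, in lower case with the matched letters in capitals (CTTCCGG is CCGGAAG read on the other strand). The SDHA window holds the NRF1 letters 3 times.
SDHA, chr5:218200-218319: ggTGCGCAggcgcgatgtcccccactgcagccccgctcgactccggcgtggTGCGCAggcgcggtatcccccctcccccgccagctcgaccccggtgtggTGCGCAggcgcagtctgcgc
SDHD, chr11:112086753-112086872: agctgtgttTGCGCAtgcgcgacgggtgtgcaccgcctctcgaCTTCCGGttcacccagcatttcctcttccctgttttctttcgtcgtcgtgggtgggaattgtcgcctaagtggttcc
NDUFA9, chr12:4648994-4649113: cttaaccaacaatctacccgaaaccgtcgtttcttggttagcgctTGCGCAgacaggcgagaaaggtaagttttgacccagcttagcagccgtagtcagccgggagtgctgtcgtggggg
COX6A1, chr12:120437993-120438112: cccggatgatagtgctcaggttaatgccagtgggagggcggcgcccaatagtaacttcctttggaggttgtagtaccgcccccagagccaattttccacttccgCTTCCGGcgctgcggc
COX8A, chr11:63974500-63974619: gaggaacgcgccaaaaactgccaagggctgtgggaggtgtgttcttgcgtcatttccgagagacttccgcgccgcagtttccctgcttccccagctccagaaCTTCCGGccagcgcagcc

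Total counts were 27348621 to 30629685 per library. SOX10, a transcription factor of the melanocyte lineage, was at 323 to 552 CPM (counts per 1000000 counts of the scaled library size), while the pigment genes PMEL, MLANA, TYR, DCT and TYRP1 did not pass 1.55 CPM in any library. The leukocyte gene CD3E and the muscle genes MYH7 and MB had no count, while the muscle gene MYH2 was at 0.589 to 1.34 CPM. Over 6 epithelial genes the summed level was 235 to 244 CPM in control, 311 to 344 at 100 µM and 299 to 396 at 200 µM, most of it KRT18. Over 7 leukocyte genes the summed level was 21.7 to 25.3 CPM in control, 18.5 to 20.5 at 100 µM and 59.3 to 84.5 at 200 µM, most of it CD68, and over 8 fibroblast and endothelial genes 19.4 to 20.7, 49.98 to 54.1 and 27.4 to 33.9. Their part in the results was not tested. In the 200 µM group replicate 3 stood apart from its mates in the mitochondrially encoded RNAs and in GC-rich nuclear RNAs, so counts of calls, and many of the named values, are given with and without it. The test was edgeR's quasi-likelihood F test over 13968 genes in all 9 libraries, with Benjamini-Hochberg adjustment over all of them, and the threshold for a call was an adjusted p of 0.05. Changes are log2 fold changes ± SE. Comparisons with control share the control libraries, and the comparison of the doses shares the treated ones.

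Compared per transcript length in control, mitochondrially encoded mRNAs other than MT-ND1, MT-ND5 and MT-ND6 stood above all nuclear members. MT-CO3 was at 5279 ± 98.5 CPM per kb (SD, n = 3), MT-CO2 at 4445 ± 175 and MT-CO1 at 3541 ± 38.1, these being the 3 catalytic-core subunits of cytochrome c oxidase. The highest nuclear members were UQCRH, the hinge subunit of complex III, at 768 ± 21.2 CPM per kb, and ATP5F1B, the catalytic beta subunit of ATP synthase, at 639.7 ± 5.83. The median nuclear member of complex I was at 68.2 CPM per kb, of complex II at 44.3, of complex III at 52.4, of complex IV at 166 and of complex V at 99.7. MT-ND6, at 161 ± 45 CPM per kb, and MT-ND5, at 279 ± 27.5, were the lowest of the mitochondrial members.

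The 13 mitochondrially encoded mRNAs took 2.32%, 2.11% and 2.17% of the counts of annotated genes in the control libraries, 3.15%, 2.93% and 2.86% at 100 µM, and 1.87%, 1.83% and 4.75% at 200 µM. Exact binomial 95% intervals were 2.32 to 2.33 in control replicate 1, 3.15 to 3.16 in 100 µM replicate 1 and 4.74 to 4.76 in 200 µM replicate 3, and cover counting error only. All 3 libraries at 100 µM lay above the controls, whereas at 200 µM replicates 1 and 2 lay below them and replicate 3 above all other libraries. The nuclear members took 1.18%, 1.13% and 1.17% in control, 1.11%, 1.12% and 1.10% at 100 µM, and 0.941%, 1.04% and 0.808% at 200 µM. The ratio of mitochondrially to nuclear-encoded counts was therefore 1.97, 1.88 and 1.86 in control, 2.84, 2.63 and 2.60 at 100 µM, and 1.99, 1.77 and 5.88 at 200 µM. These are shares of the RNA sequenced, so more of these RNAs in a cell and less of all other polyadenylated RNA cannot be told apart.

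At 100 µM the gap between the genomes was seen in each of the 4 complexes that both encode. For complex I the mean log2 level of the 7 mitochondrial members relative to control, minus that of the 38 nuclear members tested, was 0.89, 0.88 and 0.83 in the 3 libraries. The gap was 0.36, 0.26 and 0.17 for complex III, which has 1 mitochondrial member, and 0.30, 0.51 and 0.44 for complex V. In complex IV it was 0.56, 1.00 and 0.40, and without COX5B, which had 14 counts in replicate 2, it was 0.54, 0.38 and 0.39. In the control libraries the gaps lay between -0.16 and 0.23.

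At 200 µM the gap differed between libraries of the group. Replicates 1 and 2 had complex I gaps of 0.07 and -0.12 and replicate 3 a gap of 1.89. The other complexes split the same way: -0.36 and -0.49 against 1.27 in complex III, 0.01 and -0.07 against 1.61 in complex IV, and -0.20 and -0.88 against 1.14 in complex V. In replicates 1 and 2 the mitochondrial and nuclear members of complex I were both below control, at -0.32 and -0.39 for the former and -0.38 and -0.27 for the latter.

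**Figure D1:**
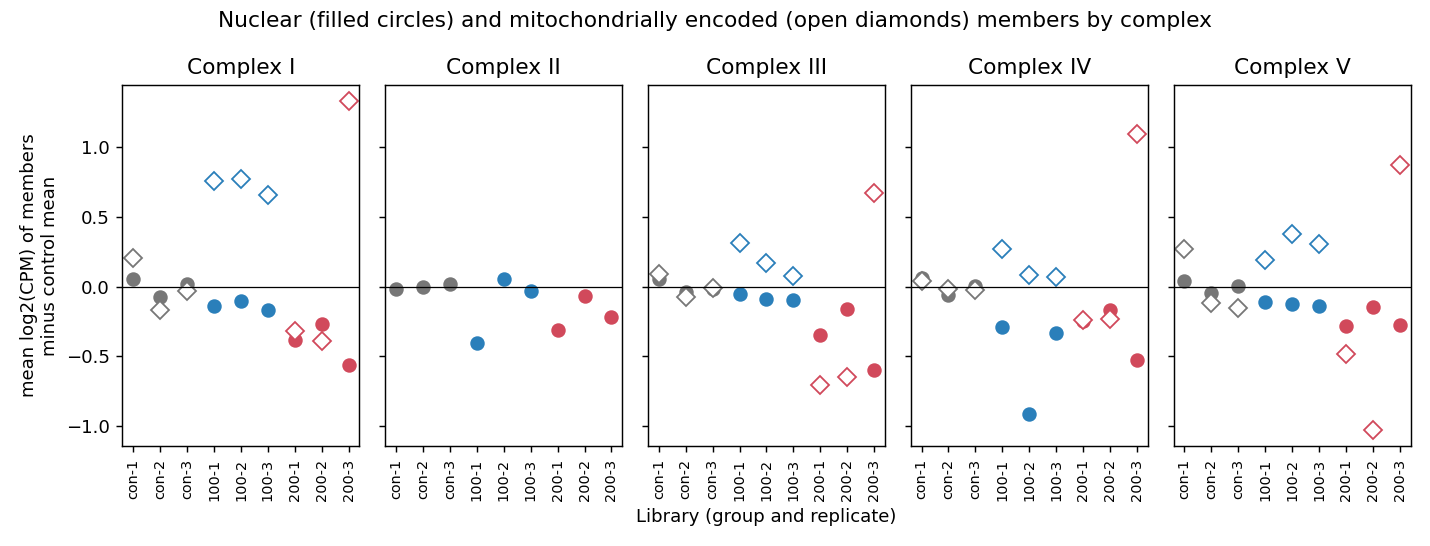
Mean log2(CPM) of the nuclear members (filled circles) and mitochondrially encoded members (open diamonds) of each complex minus the control mean (y axis), for each library (x axis, con for control, 100 and 200 for the dose in µM, followed by the replicate). Grey is control, blue 100 µM and red 200 µM. At 100 µM the diamonds lie above the circles in all 3 libraries, and at 200 µM only replicate 3 has its diamonds above 0. The low circle of complex IV at 100 µM replicate 2 includes COX5B at 14 counts.

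Among single mitochondrial genes at 100 µM, the higher values stood at neighbouring positions. In genome order MT-ND4L, MT-ND4, MT-ND5 and MT-ND6 are the ninth to twelfth protein genes. MT-ND5 (ENSG00000198786, mitochondrial genome, 12337 to 14148, plus strand), a proton-pumping subunit of complex I, had 562, 469 and 485 CPM in control, 1374, 1339 and 1221 at 100 µM and 399, 428 and 1154 at 200 µM. It rose at 100 µM, by 1.38 ± 0.36, adjusted p = 0.015, and fell from 100 to 200 µM (-0.99 ± 0.35, adjusted p = 0.046; -1.67 ± 0.09, adjusted p = 1.7e-07 without 200 µM replicate 3). The groups at 100 µM and control did not overlap. MT-ND4, another pumping subunit, had 2511, 2058 and 2218 CPM in control, 4542, 4252 and 4074 at 100 µM and 2612, 2561 and 7770.0 at 200 µM, and its change at 100 µM was 0.92 ± 0.38, adjusted p = 0.083. MT-ND4L, read from the same mature message as MT-ND4, had 466, 351 and 402 CPM in control, 771, 739 and 690.1 at 100 µM and 449, 409 and 1793 at 200 µM. For MT-ND6, the single member on the other strand, the values were 110.5, 64.2 and 78.99 CPM in control, 159, 201 and 145 at 100 µM and 56.2, 55.99 and 180.5 at 200 µM. Its gene lies under the tail of the MT-ND5 message, its own mRNA lacks a stable A tail, and without strand information its reads cannot be told apart from antisense ones.

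Members outside this block were closer to control. MT-ND1 had 532, 450.3 and 469.9 CPM in control, 755, 711 and 690.0 at 100 µM and 335, 336 and 1020.4 at 200 µM, and MT-ND2 had 1064, 893 and 905 CPM in control, 1260.2, 1269.8 and 1299.7 at 100 µM and 797, 599 and 2519 at 200 µM, both with all 100 µM libraries above the controls. MT-CO1, the oxygen-reducing subunit of complex IV, had 5519, 5458 and 5401 CPM in control, 7412, 6641 and 6699 at 100 µM and 5425, 5280.1 and 14130.3 at 200 µM. Those of MT-CO2 were 3179, 2973 and 2969.6 CPM in control, 3471, 2996 and 2878 at 100 µM and 2874, 2929 and 7082 at 200 µM, and of MT-CO3 4228, 4095 and 4093 CPM in control, 4684, 4121 and 4082 at 100 µM and 2695, 2728 and 6628 at 200 µM, with overlapping ranges at 100 µM. MT-ND3 had 410.2, 309 and 360.4 CPM in control, 331, 346 and 339 at 100 µM and 189, 183 and 522 at 200 µM. In the ATP synthase pair, MT-ATP6 had 2252, 1999 and 1967 CPM in control, 2915, 2922 and 2728 at 100 µM and 1475, 1312 and 4188 at 200 µM and MT-ATP8, whose message it shares, 486, 320.1 and 311 CPM in control, 338, 437 and 420.2 at 100 µM and 263, 139 and 603 at 200 µM. MT-CYB, the cytochrome b of complex III, had 2234, 1994 and 2082 CPM in control, 2606, 2362 and 2209 at 100 µM and 1285, 1337 and 3351 at 200 µM.

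**Figure D2:**
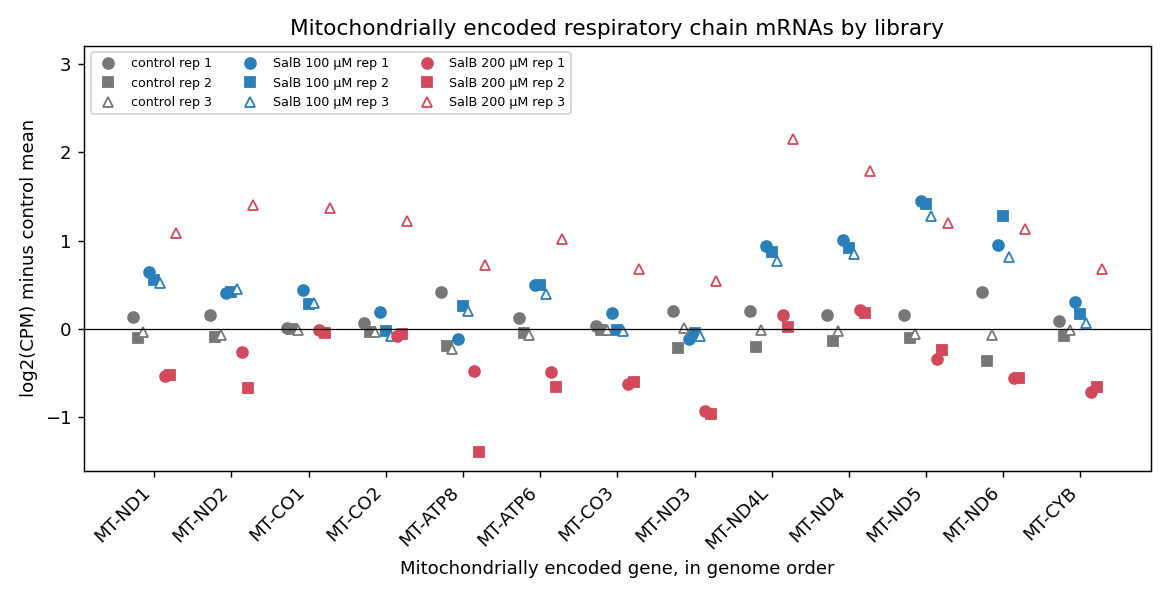
log2(CPM) of each mitochondrially encoded member minus its control mean (y axis), in genome order (x axis), for each of the 9 libraries. Circles, squares and open triangles are replicates 1, 2 and 3 of control (grey), 100 µM (blue) and 200 µM (red). The 100 µM libraries reach 1.28 to 1.45 at MT-ND5 and lie near 0 at MT-CO2, MT-CO3 and MT-ND3, and 200 µM replicate 3 lies above its 2 mates at every gene.

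By the test over all genes 1 of 13 mitochondrial members, MT-ND5, was called higher at 100 µM and 0 lower, where 18.9% of all genes were called higher and 18.2% lower (median of members 0.42, of all genes -0.01). In 8 of 13 the 3 libraries lay above all controls, against 32.3% of all genes. The spread estimate is shared by all groups and includes 200 µM replicate 3: without that library 9 were higher and 0 lower at 100 µM (background 28.7% and 27.5%), with MT-ND5 at 1.40 ± 0.08, adjusted p = 3.5e-07 and MT-ND4 at 0.95 ± 0.07, adjusted p = 2.5e-06. With control replicate 2 or control replicate 3 left out, MT-ND5 was no longer called and the count was 0. With trends over GC content and length removed, 5 were called higher.

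Against control at 200 µM no mitochondrial member was called by edgeR in either direction (background 19.8% higher and 17.5% lower), nor by DESeq2. At an unadjusted p under 0.05, 1 was higher and 0 lower. Without replicate 3, 7 were lower and 1 higher (background 25.9% and 27.9%), the higher one being MT-ND4 (0.21 ± 0.08, adjusted p = 0.043). MT-ND3 then changed by -0.94 ± 0.10, adjusted p = 4.2e-05, MT-CYB by -0.67 ± 0.07, adjusted p = 3.2e-05 and MT-CO3 by -0.60 ± 0.06, adjusted p = 1.9e-05, while MT-CO1 (-0.01 ± 0.05, adjusted p = 0.83) and MT-CO2 (-0.05 ± 0.07, adjusted p = 0.57) missed the threshold. From 100 to 200 µM, 1 member was lower (MT-ND5) and 0 higher by either tool, at a background of 21.9% and 22.4%; at an unadjusted p under 0.05 these were 1 and 0. Without 200 µM replicate 3, 11 were lower (background 28.3%), and without any one of the other 8 libraries, 0. With GC and length trends removed 2 were lower (background 25.4%).

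A ratio of 2 mitochondrial genes within a library does not depend on its mitochondrial share. CPM of MT-ND5 over MT-CO3 was 0.133, 0.115 and 0.118 in control, 0.293, 0.325 and 0.299 at 100 µM, and 0.148, 0.157 and 0.174 at 200 µM. The 100 µM libraries lay above all others, and replicate 3 at 200 µM lay near its mates. MT-ND5 took 2.27% ± 0.104 of the mitochondrial counts in control (SD, n = 3), 4.55% ± 0.151 at 100 µM and 2.24% ± 0.115 at 200 µM. MT-ND4 took 10.2% ± 0.533, 14.9% ± 0.0995 and 14.4% ± 0.769. MT-CO3 took 18.6% ± 0.602, 14.9% ± 0.379 and 14.1% ± 0.969, and MT-CYB 9.45% ± 0.140, 8.30% ± 0.239 and 6.90% ± 0.372. These shares show unequal change between the genes of 1 genome, not which of them stayed level. Nuclear copies of mitochondrial sequence can share reads with some of these genes, and no source used here says how such reads were counted.

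In 200 µM replicate 3 all 13 mitochondrial members stood over 2-fold above the mean of replicates 1 and 2, by a log2 difference of 1.29 to 2.06 (median 1.59). Of the 81 nuclear members, 49 were below that mean and 32 above (median -0.14), with 3 over 2-fold below and 1 over 2-fold above. Over the 81, the difference fell with the GC content of the transcript (Spearman's rho -0.41 across genes, which are not independent replicates), as it did over all genes (-0.61 over 13874). At 100 µM against control the relation had the other sign, at 0.50 over the nuclear members and 0.48 over all genes. It was also positive for the mean of 200 µM replicates 1 and 2 against control, at 0.43 and 0.40. Nuclear members of GC content below their median of 48.5% had median log2 levels of -0.31, -0.32 and -0.30 in the 100 µM libraries relative to control, and those at or above it 0.01, -0.05 and -0.12. The part of base composition in the nuclear results was not tested beyond the fits with these trends removed.

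**Figure D3:**
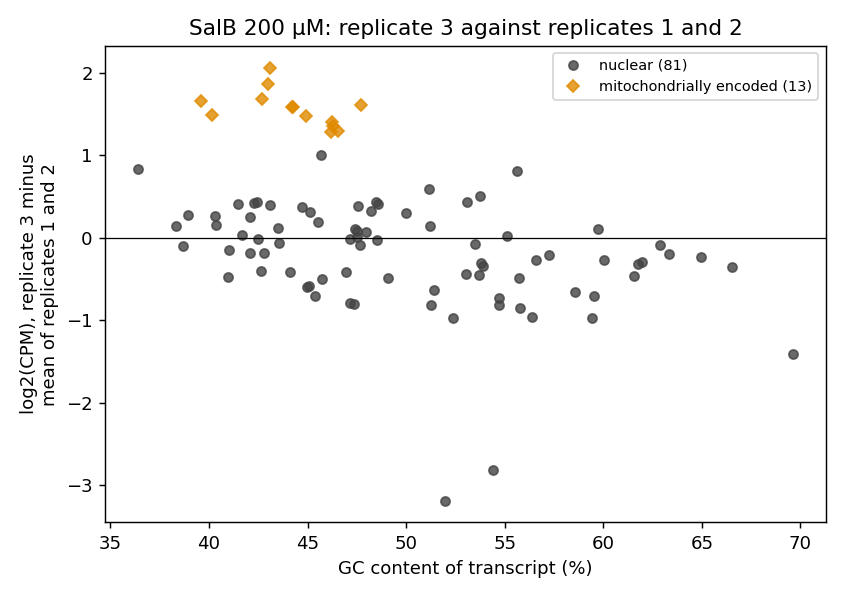
log2(CPM) in 200 µM replicate 3 minus the mean of replicates 1 and 2 (y axis) against the GC content of the transcript in percent (x axis), for the 81 nuclear members tested (grey circles) and the 13 mitochondrially encoded members (orange diamonds). All diamonds lie between 1.29 and 2.06, above every nuclear member, and the circles slope downward. The 2 lowest circles are NDUFS3 and COX5B.

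Nuclear members passed the filter on low counts in 81 of 90 cases. At 100 µM 5 of 81 were higher (6.17%) and 23 lower (28.4%) than control, against 18.9% and 18.2% of all genes, with a median of -0.19. At 200 µM 0 were higher and 33 lower (40.7%), against 19.8% and 17.5%, with a median of -0.30; at an unadjusted p under 0.05, 2 were higher and 42 lower, and DESeq2 called 0 and 38. From 100 to 200 µM 5 were higher and 21 lower (25.9%), against 22.4% and 21.9%, with a median of -0.12. All 100 µM libraries lay below all controls for 42 members and above for 16, against 34.7% and 32.3% of all genes. All 200 µM libraries lay below all controls for 44 members and above for 2, against 24.5% and 24.4% of all genes, and below all 100 µM libraries for 30 and above for 8, against 27.8% and 25.4%.

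Without 200 µM replicate 3 the counts were 16 higher and 39 lower at 100 µM, 1 and 43 at 200 µM, and 5 and 28 between the doses (background 28.7% and 27.5%, 27.9% and 25.9%, 25.8% and 28.3%). With GC and length trends removed they were 8 higher and 3 lower at 100 µM, where the background was 16.0% and 16.9% and the members' median turned to 0.05. Under that fit the 3 lower members were NDUFA13, NDUFB8 and COX7A2L. At 200 µM it left 1 higher and 21 lower (background 23.4% and 22.1%). The count of 23 lower at 100 µM also dropped to 12 without control replicate 1 or without 100 µM replicate 3, 13 without 100 µM replicate 2, and 14 without control replicate 3 or 100 µM replicate 1, and the count of 33 at 200 µM to 14, 16 and 19 without control replicate 1, control replicate 3 and 200 µM replicate 1. Over the libraries left out, calls of all genes at 100 µM ranged from 3469 to 7943, against 5181 with all libraries.

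Complex I oxidizes NADH. Of its 38 nuclear members tested, 3 were higher and 9 lower at 100 µM, 18 were lower at 200 µM, and 1 was higher and 15 lower from 100 to 200 µM (all genes 18.9% and 18.2%, 17.5% lower, and 22.4% and 21.9%). Leaving out 200 µM replicate 3 gave 7 higher and 17 lower, 19 lower, and 1 and 14. All genes then gave 28.7% and 27.5%, 25.9% lower, and 25.8% and 28.3%. NDUFV2 (ENSG00000178127, GRCh38 chromosome 18, 9102630 to 9134345), an iron-sulfur subunit of the NADH-oxidizing module, had 147, 149 and 147 CPM in control, 135, 133 and 133 at 100 µM and 94.98, 94.9 and 100.1 at 200 µM. It fell at 200 µM against control (-0.61 ± 0.06, adjusted p = 1.2e-04) and against 100 µM (-0.47 ± 0.06, adjusted p = 3.7e-04). The 3 groups did not overlap, and 28.4% of its exon bases also belong to another annotated gene. At 100 µM its value was -0.14 ± 0.06, adjusted p = 0.10, with a lower call when the GC trend was removed (-0.14, adjusted p = 0.031) and a higher one when GC and length trends were (0.17, adjusted p = 0.018). Without 200 µM replicate 3 it was called lower (-0.12 ± 0.04, adjusted p = 0.039). NDUFB6 (ENSG00000165264, GRCh38 chromosome 9, 32552999 to 32573184), an accessory subunit of the membrane arm, had 116, 117 and 113 CPM in control, 80.9, 90.98 and 91.5 at 100 µM and 73.3, 76.2 and 76.6 at 200 µM. It fell at both doses (-0.39 ± 0.07, adjusted p = 0.0035 and -0.61 ± 0.07, adjusted p = 3.0e-04), although the value at 100 µM turned to 0.11 with GC and length trends removed. NDUFA9 (ENSG00000139180, GRCh38 chromosome 12, 4649095 to 4694317), which binds NADPH near the quinone site, had 105, 110.4 and 92.5 CPM in control, 104, 100.1 and 109 at 100 µM and 71.3, 75.6 and 70.1 at 200 µM. It was lower at 200 µM than in control (-0.51 ± 0.09, adjusted p = 0.0019) and than at 100 µM (-0.53 ± 0.09, adjusted p = 0.0011), while at 100 µM its value was 0.02 ± 0.09, adjusted p = 0.86. Of its exon bases 10.6% overlap another gene.

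The catalytic subunits of complex I took other courses. NDUFV1, which binds FMN and NADH, had 123, 119.9 and 133 CPM in control, 171, 168 and 166 at 100 µM and 117, 134 and 63.8 at 200 µM. Its replicates 1 and 2 at 200 µM lay within or near the control range and replicate 3 far below. It was called between the doses (-0.68 ± 0.22, adjusted p = 0.032; -0.43 ± 0.08, adjusted p = 6.7e-04 without replicate 3) and not against control, but it was higher at 100 µM when that library was left out (0.45 ± 0.07, adjusted p = 2.4e-04). NDUFV1 and NDUFS1 share 12.0% and 11.7% of their exon bases with other genes. NDUFS1, which carries iron-sulfur clusters, had 82.7, 102 and 92.7 CPM in control, 96.8, 82.97 and 74.3 at 100 µM and 80.4, 88.4 and 73.9 at 200 µM and was not called in any comparison. Among the members higher at 100 µM were NDUFA10 (0.28 ± 0.07, adjusted p = 0.015) and NDUFB10 (0.29 ± 0.09, adjusted p = 0.029). Both calls were lost with GC and length trends removed (0.15, adjusted p = 0.056 and 0.29, adjusted p = 0.093). NDUFB9 had the lowest complex I value at 200 µM among members with no read-through partner, at -1.01 ± 0.18, adjusted p = 0.0022, from 95.8, 96.4 and 94.6 CPM in control, 96.2, 86.99 and 85.97 at 100 µM and 32.9, 51.3 and 58.3 at 200 µM. Of its exon bases 21.0% overlap MTSS1 on the other strand. NDUFB8, a membrane-arm subunit, had 185, 179 and 187 CPM in control, 111, 116 and 121 at 100 µM and 135, 161 and 88.8 at 200 µM, with 48.5% of its exon bases shared with another gene.

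NDUFA4, first counted with complex I and now known to bind complex IV, had 317, 310.2 and 310.0 CPM in control, 212, 222 and 220.0 at 100 µM and 230.1, 256 and 271 at 200 µM. It was lower at 100 µM (-0.52 ± 0.08, adjusted p = 8.8e-04) and at 200 µM (-0.31 ± 0.08, adjusted p = 0.011), and neither call remained with GC trends removed (adjusted p = 0.070 and 0.21). NDUFA4L2, the paralogue that hypoxia can induce, was low at 0.758 to 1.85 CPM and was not called. Relative to the control mean its log2 levels were 0.69, 0.81 and 0.66 in the 200 µM libraries, above the highest control at 0.47. Its 100 µM libraries, at 0.49, 0.53 and -0.02, overlapped the controls. Complexes were assigned by symbol, so counts and gaps of complex I include both genes and those of complex IV do not. Complex I also includes the read-through gene NDUFC2-KCTD14.

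Complex II is succinate dehydrogenase, which also serves the citric acid cycle, and is wholly nuclear. Of its 4 members 1 was higher and 1 lower at 100 µM, and 2 were lower at 200 µM (all genes 18.9% and 18.2%, and 17.5% lower). These counts were the same without 200 µM replicate 3 (all genes 28.7% and 27.5%, and 25.9% lower). From 100 to 200 µM 1 was lower, and 2 without that library (all genes 21.9% and 28.3%). SDHA (ENSG00000073578, GRCh38 chromosome 5, 218241 to 256700), its flavoprotein, had 84.3, 74.97 and 89.2 CPM in control, 114, 127 and 116 at 100 µM and 86.9, 109 and 99.03 at 200 µM. It rose at 100 µM by 0.52 ± 0.11, adjusted p = 0.0047, with all 3 libraries above the controls, and at 200 µM its value was 0.25 ± 0.11, adjusted p = 0.095 with overlapping ranges. SDHD, a membrane anchor, had 141, 144 and 136 CPM in control, 92.1, 108 and 116 at 100 µM and 112, 93.4 and 92.6 at 200 µM, and fell at both doses (-0.41 ± 0.11, adjusted p = 0.017 and -0.49 ± 0.11, adjusted p = 0.0069). With GC and length trends removed neither call remained (0.11, adjusted p = 0.50 and -0.15, adjusted p = 0.32), and 12.2% of its exon bases overlap another gene. For SDHC, the other anchor, the libraries gave 181, 188 and 186 CPM in control, 171, 188 and 182 at 100 µM and 152, 161 and 119 at 200 µM, lower at 200 µM (-0.36 ± 0.11, adjusted p = 0.030; -0.22 ± 0.06, adjusted p = 0.010 without replicate 3). The SDHC call with all libraries was lost in 8 alternatives, among them the GC trend removed and each control library left out. It was kept with GC and length trends removed (-0.45, adjusted p = 0.043). SDHB, the iron-sulfur subunit, had 59.03, 65.1 and 62.7 CPM in control, 23.98, 60.1 and 49.5 at 100 µM and 37.7, 67.7 and 66.9 at 200 µM and was not called, its lowest library being 100 µM replicate 1. The subunits of this 1 complex thus stood on both sides of control at 100 µM.

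Complex III passes electrons from ubiquinol to cytochrome c. Of its 10 nuclear members 3 were lower at 100 µM, 5 at 200 µM, and 2 from 100 to 200 µM (all genes 18.2%, 17.5% and 21.9%). With 200 µM replicate 3 left out, 3 were higher and 5 lower at 100 µM, 6 lower at 200 µM and 4 lower between the doses. The shares of all genes were then 28.7% and 27.5%, 25.9% and 28.3%. CYC1, the cytochrome c1 heme subunit, had 143, 136 and 143 CPM in control, 159, 158 and 152 at 100 µM and 109.8, 119 and 91.9 at 200 µM. It fell at 200 µM against control (-0.39 ± 0.10, adjusted p = 0.011) and against 100 µM (-0.55 ± 0.10, adjusted p = 0.0016). At 100 µM all libraries were above the controls but the change was not called (0.15 ± 0.10, adjusted p = 0.24). Without 200 µM replicate 3 it was called higher there (0.18 ± 0.05, adjusted p = 0.015), and with GC trends removed lower (-0.18, adjusted p = 0.040). UQCR10 (ENSG00000184076, GRCh38 chromosome 22, 29767369 to 29770413), a small accessory subunit, had 41.2, 31.7 and 38.5 CPM in control, 40.3, 39.2 and 39.5 at 100 µM and 24.1, 28.1 and 26.2 at 200 µM, and was lower at 200 µM than in control (-0.50 ± 0.11, adjusted p = 0.0068) and than at 100 µM (-0.60 ± 0.11, adjusted p = 0.0022). UQCRB, which lies at the quinone pocket, had 279.7, 254 and 266 CPM in control, 225, 221 and 217 at 100 µM and 188, 205 and 216 at 200 µM, with calls at 100 µM (-0.27 ± 0.08, adjusted p = 0.020) and 200 µM (-0.40 ± 0.08, adjusted p = 0.0033). With GC trends removed its values were 0.11 and -0.17 and not called.

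UQCRFS1 and UQCRC1 were not called with all 9 libraries. UQCRFS1, the Rieske iron-sulfur protein, had 109, 114 and 121 CPM in control, 131, 131 and 119 at 100 µM and 104, 115 and 73.02 at 200 µM. UQCRC1, a large subunit on the matrix side, had 187, 185 and 198 CPM in control, 239, 232 and 208 at 100 µM and 187, 215 and 123 at 200 µM. In both, 200 µM replicate 3 was the lowest of the 9 libraries, and without it both were called higher at 100 µM (0.18 ± 0.07, adjusted p = 0.045, and 0.28 ± 0.07, adjusted p = 0.0067). UQCRHL was called lower at 100 µM (-0.49 ± 0.14, adjusted p = 0.026), at 7.49 to 12.8 CPM over all libraries. This call was lost with GC and length trends removed (-0.36, adjusted p = 0.095). UQCRHL is a near-identical copy of UQCRH, so reads of the pair cannot be assigned with certainty.

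Complex IV reduces oxygen. Of its 11 nuclear members tested 5 were lower at 100 µM and 3 at 200 µM, with 3 higher and 1 lower from 100 to 200 µM (all genes 18.2%, 17.5%, and 22.4% and 21.9%). Dropping 200 µM replicate 3 gave 7 and 5 lower against control, with 3 and 1 again between the doses. In that fit 27.5% and 25.9% of all genes were lower, and 25.8% and 28.3% were called between the doses. COX6C, a nuclear subunit of the membrane part, had 155, 146 and 139.7 CPM in control, 89.00, 99.2 and 93.4 at 100 µM and 101, 114 and 127 at 200 µM. It fell at 100 µM (-0.64 ± 0.10, adjusted p = 0.0012) and at 200 µM (-0.36 ± 0.10, adjusted p = 0.018). Neither call remained with GC and length trends removed (-0.12, adjusted p = 0.29 and -0.02, adjusted p = 0.84). The rise between the doses (0.28 ± 0.10, adjusted p = 0.043) was not called without replicate 3 (0.19 ± 0.08, adjusted p = 0.067). COX7A2 (ENSG00000112695, GRCh38 chromosome 6, 75237675 to 75250323) had 216, 203 and 210.0 CPM in control, 135, 145 and 124 at 100 µM and 158, 171 and 222 at 200 µM, lower at 100 µM (-0.64 ± 0.13, adjusted p = 0.0041) and higher at 200 than at 100 µM (0.45 ± 0.13, adjusted p = 0.017; 0.28 ± 0.07, adjusted p = 0.0080 without replicate 3). Without replicate 3 it was also lower at 200 µM than in control (-0.34 ± 0.07, adjusted p = 0.0034). The COX7A2 call at 100 µM was lost with GC and length trends removed (-0.10, adjusted p = 0.42). COX7A2L (ENSG00000115944, GRCh38 chromosome 2, 42333546 to 42425088), its paralogue that takes part in supercomplexes of III and IV, had 129, 126 and 114 CPM in control, 79.6, 85.2 and 92.1 at 100 µM and 122, 98.8 and 119.7 at 200 µM. It was lower at 100 µM (-0.53 ± 0.10, adjusted p = 0.0042) and higher at 200 than at 100 µM (0.41 ± 0.10, adjusted p = 0.011), while its 200 µM libraries overlapped control (-0.12 ± 0.10, adjusted p = 0.40). COX8A (ENSG00000176340, GRCh38 chromosome 11, 63974607 to 63976543), the smallest subunit, took the other course with 260.3, 227 and 255 CPM in control, 252, 251 and 245 at 100 µM and 170.5, 197 and 117 at 200 µM. At 100 µM its value was 0.01 ± 0.16, adjusted p = 0.97 (-0.26, adjusted p = 0.033, with the GC trend removed), and it fell at 200 µM (-0.62 ± 0.16, adjusted p = 0.016; -0.41 ± 0.08, adjusted p = 0.0014 without replicate 3), and 34.5% of its exon bases overlap another gene. COX6A1 had 348, 334 and 344 CPM in control, 295, 272 and 259.5 at 100 µM and 304, 296 and 285 at 200 µM and was lower at 100 µM (-0.31 ± 0.07, adjusted p = 0.0079) and 200 µM (-0.22 ± 0.07, adjusted p = 0.039), with 13.02% of its exon bases in another gene. Both COX6A1 calls were lost with GC and length trends removed (-0.12, adjusted p = 0.21 and -0.03, adjusted p = 0.77), and the call at 200 µM in 11 alternatives.

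Complex IV has tissue isoforms, and the forms of muscle, lung and testis were at or near 0 counts. COX4I2, COX6A2 and COX7B2 had 0 counts in all libraries, which allows at most 3 counts, or 0.0963 to 0.119 CPM by library. COX7A1 did not pass 0.128 CPM, COX6B2 0.338 and COX8C 0.0397. The ubiquitous partners were COX4I1 at 431, 407 and 436 CPM in control, 408, 358 and 369 at 100 µM and 397, 429 and 343 at 200 µM, and COX6B1 at 135, 129 and 138 CPM in control, 113, 112 and 116 at 100 µM and 129, 140.4 and 74.7 at 200 µM, neither called in any comparison with all libraries. COX6B1 without 200 µM replicate 3 was lower at 100 µM (-0.21 ± 0.05, adjusted p = 0.0071) and higher at 200 than at 100 µM (0.24 ± 0.06, adjusted p = 0.0075). With these, NDUFA3, ATP5MF-PTCD1 and ATP5MGL make up the 9 members not tested.

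Complex V makes ATP. Among its 18 nuclear members tested 1 was higher and 5 lower at 100 µM, 5 were lower at 200 µM, and 1 was higher and 2 lower from 100 to 200 µM (all genes 18.9% and 18.2%, 17.5% lower, and 22.4% and 21.9%). The counts without 200 µM replicate 3 were 5 higher and 9 lower, 1 and 11, and 1 and 7. Beside them stood 28.7% and 27.5%, 27.9% and 25.9%, and 25.8% and 28.3% of all genes. The catalytic subunit ATP5F1B had 1183, 1164 and 1182 CPM in control, 1376, 1366 and 1293 at 100 µM and 1109, 1225 and 663 at 200 µM. It was not called against control with all libraries, and at 200 µM replicate 3 lay far below its mates. ATP5F1A, its partner in the catalytic head, had 538, 554 and 539 CPM in control, 591, 615 and 588 at 100 µM and 457, 522 and 345 at 200 µM, and was lower at 200 than at 100 µM (-0.44 ± 0.13, adjusted p = 0.022; -0.30 ± 0.06, adjusted p = 0.0023 without replicate 3). At 100 µM ATP5F1A (0.16 ± 0.06, adjusted p = 0.030) and ATP5F1B (0.22 ± 0.05, adjusted p = 0.0036) were called higher without that library. ATP5MG (ENSG00000167283, GRCh38 chromosome 11, 118401154 to 118431496), the g subunit of the membrane part, had 259, 255 and 246 CPM in control, 209, 200.1 and 205 at 100 µM and 178, 188 and 181 at 200 µM. It fell at 100 µM (-0.31 ± 0.06, adjusted p = 0.0052) and at 200 µM (-0.47 ± 0.06, adjusted p = 5.0e-04), and 12.5% of its exon bases overlap another gene. Neither ATP5MG call remained with GC and length trends removed (0.11, adjusted p = 0.35 and -0.20, adjusted p = 0.082). ATP5MK (ENSG00000173915, GRCh38 chromosome 10, 103389041 to 103396492), a small subunit linked to dimers of the synthase, had 118, 102 and 109 CPM in control, 71.1, 83.1 and 80.5 at 100 µM and 107, 107 and 106 at 200 µM. It was lower at 100 µM (-0.49 ± 0.09, adjusted p = 0.0026) and higher at 200 than at 100 µM (0.45 ± 0.09, adjusted p = 0.0028), with its 200 µM libraries inside the control range. With GC and length trends removed the ATP5MK call at 100 µM was lost (-0.15, adjusted p = 0.16), and 18.1% of its exon bases overlap another gene. ATP5F1E, the epsilon subunit of the central stalk, had 233, 195 and 201 CPM in control, 117, 148 and 142 at 100 µM and 151, 189 and 158 at 200 µM and fell at 100 µM (-0.63 ± 0.12, adjusted p = 0.0042), a call lost with GC trends removed (adjusted p = 0.28), and 23.2% of its exon bases overlap TUBB1. ATP5IF1, the inhibitor that blocks hydrolysis of ATP by the synthase, had 34.3, 33.5 and 33.5 CPM in control, 31.6, 29.6 and 28.2 at 100 µM and 23.8, 28.4 and 28.7 at 200 µM, lower at 200 µM (-0.32 ± 0.10, adjusted p = 0.027). That call was lost with GC and length trends removed (-0.12, adjusted p = 0.21).

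Subunit c of ATP synthase forms the rotor ring and is made as the same mature protein from 3 nuclear genes. ATP5MC2 had 159, 145 and 168 CPM in control, 208, 194 and 189.7 at 100 µM and 162, 183 and 148 at 200 µM and rose at 100 µM (0.32 ± 0.10, adjusted p = 0.028). The ATP5MC2 call was lost in 7 alternatives, among them the GC trend removed and each 100 µM library left out. It was kept with GC and length trends removed (0.18, adjusted p = 0.045). For ATP5MC3 the values were 229.7, 216 and 225 CPM in control, 202, 209 and 205 at 100 µM and 176, 197 and 134 at 200 µM. It was lower at 200 µM (-0.40 ± 0.12, adjusted p = 0.030, and -0.25 ± 0.06, adjusted p = 0.0072 without replicate 3). The call with all libraries was lost with GC and length trends removed (-0.31, adjusted p = 0.22). ATP5MC1 had 63.7, 60.6 and 63.1 CPM in control, 76.1, 72.98 and 71.3 at 100 µM and 69.2, 79.98 and 42.2 at 200 µM and was not called with all libraries, but without 200 µM replicate 3 it was higher at 100 µM (0.26 ± 0.07, adjusted p = 0.0072) and 200 µM (0.27 ± 0.07, adjusted p = 0.010). In ATP5MC1 and ATP5MC3, 200 µM replicate 3 was the lowest of the 9 libraries.

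**Figure D4:**
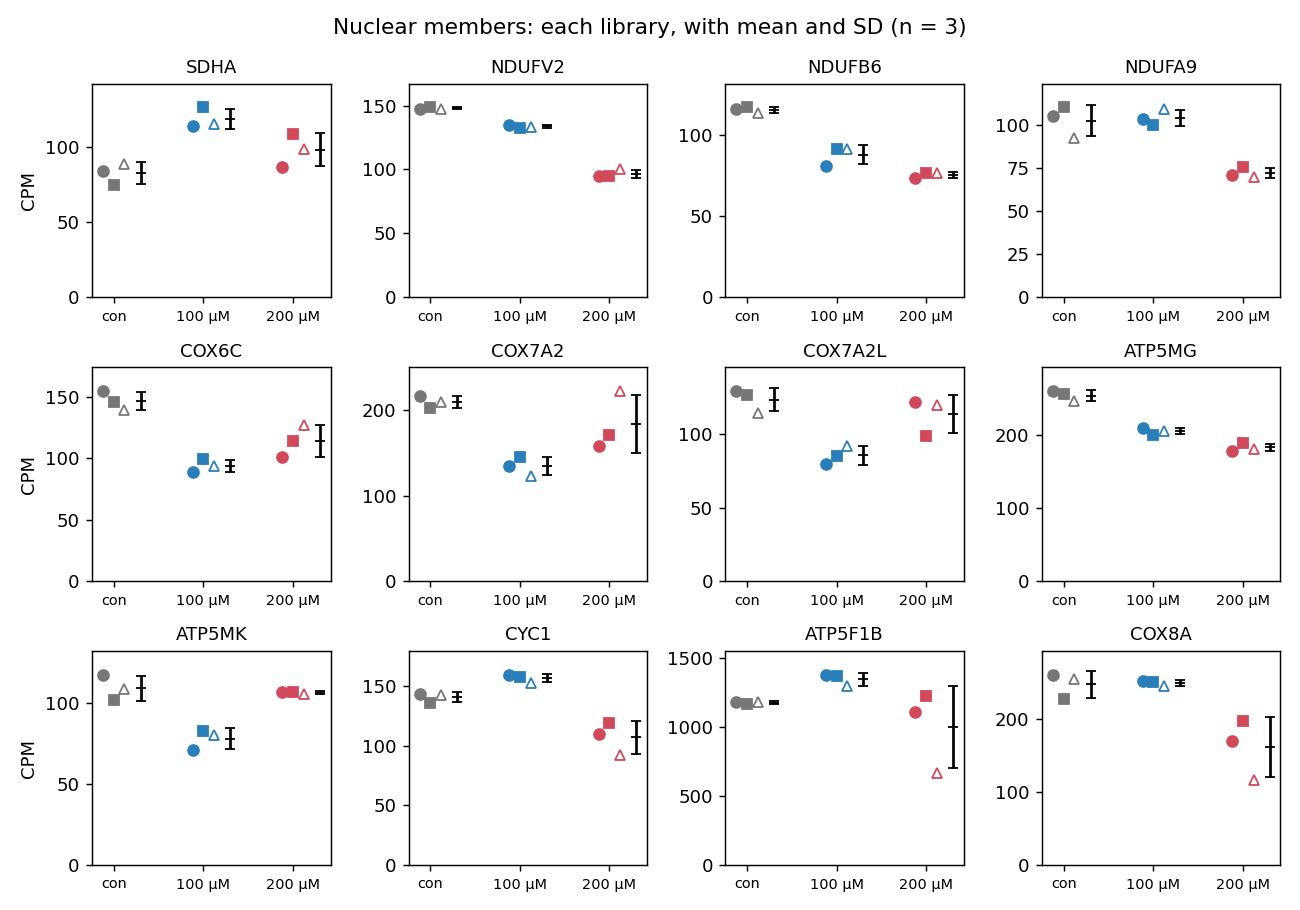
CPM (y axis, from 0) of 12 nuclear members in control (con, grey), 100 µM (blue) and 200 µM (red). Circles, squares and open triangles are replicates 1, 2 and 3, and the bar beside each group is its mean and SD (n = 3). NDUFV2, NDUFB6, NDUFA9 and ATP5MG are lower at 200 µM in every library, COX7A2L and ATP5MK are low at 100 µM, and SDHA is high at 100 µM. ATP5F1B and COX8A have their lowest value in 200 µM replicate 3.

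Several members had counts too uneven within a group to be read. COX5B had 65.4, 57.4 and 64.9 CPM in control, 43.95, 0.454 and 47.3 at 100 µM and 46.6, 53.9 and 5.48 at 200 µM, with 14 counts in 100 µM replicate 2 and 138 in 200 µM replicate 3. NDUFS3 had 59.1, 35.99 and 61.6 CPM in control, 50.2, 51.5 and 24.8 at 100 µM and 52.3, 59.7 and 7.90 at 200 µM, with 199 counts in 200 µM replicate 3 and 22.4% of its exon bases in another gene. NDUFC2 and the read-through gene NDUFC2-KCTD14, which spans it, divided their reads differently from library to library. Their summed CPM was 204, 198 and 199 in control, 175, 168 and 169 at 100 µM, and 138, 149 and 84.0 at 200 µM, so that the groups did not overlap. The cause of these counts was not tested.

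Factors that assemble the complexes were described in the same fit. Genes of this and the other related lists were read only in the main fit and in the fit without 200 µM replicate 3. Their calls were not checked with GC or length trends removed or with other libraries left out. Of 52 genes, 2 were higher and 17 lower at 100 µM (median -0.22), 3 and 17 at 200 µM (-0.18), and 9 and 6 from 100 to 200 µM (0.02), against shares of all genes 18.9% and 18.2%, 19.8% and 17.5%, and 22.4% and 21.9%. Leaving out 200 µM replicate 3 made these 8 and 24, 6 and 24, and 12 and 8, in that order. The shares of all genes rose as well, to 28.7% and 27.5%, 27.9% and 25.9%, and 25.8% and 28.3%. COA4, a complex IV assembly factor, had 120.3, 120.1 and 120.1 CPM in control, 94.8, 85.8 and 89.9 at 100 µM and 96.4, 97.9 and 103 at 200 µM, lower at 100 µM (-0.41 ± 0.07, adjusted p = 0.0020). NDUFAF5, a complex I factor, was lower at 100 µM (-0.69 ± 0.11, adjusted p = 0.0016), and CMC1, 33.4% of whose exon bases overlap AZI2, was lower at 100 µM (-0.63 ± 0.10, adjusted p = 0.0012) and at 200 µM (-0.77 ± 0.10, adjusted p = 3.6e-04). COA5 fell at 200 µM (-0.71 ± 0.10, adjusted p = 4.8e-04), as did ATPAF1, which assembles the ATP synthase head (-0.50 ± 0.07, adjusted p = 4.8e-04). SURF1, a complex IV factor, ranged from 0.993 to 10.5 CPM and was not called.

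Genes that transcribe and process mitochondrial RNA numbered 32 tested, of which 3 were higher and 9 lower at 100 µM (median -0.12), 1 and 5 at 200 µM (-0.09), and 3 and 4 between the doses (0.06), beside all genes 18.9% and 18.2%, 19.8% and 17.5%, and 22.4% and 21.9%. Higher and lower calls were 8 and 13, 6 and 13, and 6 and 7 without 200 µM replicate 3. Over all genes they were then 28.7% and 27.5%, 27.9% and 25.9%, and 25.8% and 28.3%. TFAM, which packages mitochondrial DNA and starts its transcription, had 138, 144 and 125 CPM in control, 81.7, 95.9 and 101 at 100 µM and 92.3, 65.8 and 96.3 at 200 µM. It fell at 100 µM (-0.55 ± 0.15, adjusted p = 0.019) and 200 µM (-0.68 ± 0.15, adjusted p = 0.0065). TFB2M, the second initiation factor, was lower at both (-0.50 ± 0.10, adjusted p = 0.0057 and -0.36 ± 0.10, adjusted p = 0.023). POLRMT, the mitochondrial RNA polymerase, had 27.2, 27.5 and 31.1 CPM in control, 48.5, 48.4 and 46.1 at 100 µM and 41.9, 46.99 and 26.1 at 200 µM, and rose at 100 µM (0.74 ± 0.19, adjusted p = 0.014). ELAC2, which cuts tRNAs from the precursor, rose at 100 µM (0.47 ± 0.07, adjusted p = 9.5e-04). MTERF1, a termination factor, fell at 200 µM (-0.79 ± 0.15, adjusted p = 0.0028). LRPPRC, which stabilizes mitochondrial mRNAs, stood at 208, 218 and 197 CPM in control, 211, 231 and 225 at 100 µM and 209, 193 and 252 at 200 µM and was not called.

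Carriers and subunits outside the symbol pattern held 20 genes, of which 4 were lower at 100 µM (median -0.13), 1 higher and 11 lower at 200 µM (-0.39), and 1 and 6 between the doses (-0.24), beside 18.2% lower, 19.8% and 17.5%, and 22.4% and 21.9% of all genes. Lower calls were 5, 13 and 7 without 200 µM replicate 3, and 2 genes were higher at 200 µM and 2 between the doses. Of all genes 27.5%, 25.9% and 28.3% were then lower, and 27.9% and 25.8% higher. CYCS, cytochrome c, which carries electrons from complex III to IV, had 439.9, 448 and 401 CPM in control, 239, 288 and 312 at 100 µM and 349.8, 270.3 and 298 at 200 µM, lower at 100 µM (-0.62 ± 0.12, adjusted p = 0.0043) and 200 µM (-0.49 ± 0.12, adjusted p = 0.013). COQ2, of ubiquinone synthesis, had 26.2, 27.5 and 22.4 CPM in control, 28.96, 26.99 and 30.1 at 100 µM and 13.6, 12.96 and 15.4 at 200 µM, lower at 200 µM (-0.86 ± 0.11, adjusted p = 4.6e-04). COQ7, of the same pathway, was lower at 100 µM (-0.53 ± 0.12, adjusted p = 0.0095) and 200 µM (-0.81 ± 0.12, adjusted p = 9.8e-04). SQOR, which passes electrons from sulfide to ubiquinone, fell at 100 µM from 4.76 to 5.37 CPM in control to 0.449 to 0.972 (-2.92 ± 0.26, adjusted p = 5.9e-05), and was at 6.96 to 9.18 CPM at 200 µM. An overlap with another gene covers 28.5% of its exon bases.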

How the data were processed

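Poly-A selected RNA of 9 A375 libraries was sequenced. The authors deposited raw read counts per gene, and per the submitters' processing notes used FastQC, HISAT2, featureCounts and DESeq2 with GRCh38 (hg38). No source used here gives versions, the strand setting or the annotation release. Assembled transcripts (2142 of 22605 features) were left out, leaving 20463 genes. Counts were tested with edgeR 4.0.16 in R 4.3.3 (TMM scaling, filterByExpr, robust quasi-likelihood F test, 3 groups, 9 libraries, 6 residual degrees of freedom) and adjusted by Benjamini-Hochberg over 13968 genes, and the script was tested on simulated data. CPM divides by TMM-scaled library sizes. GENCODE release 29 supplied transcript lengths, GC content and the overlap of exons. DESeq2 1.42.0, RLE scaling, scaling over nuclear genes, no filter, 2 groups alone, a replicate block, GC and length trends (lowess span 0.3) and each library left out were the alternatives. Total counts of 27348621 to 30629685 set the precision.

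Genes named were all mitochondrial members, the 2 nuclear members of smallest p per complex and comparison, fixed catalytic subunits and isoform sets, and up to 3 genes per related list and comparison. NDUFA10, NDUFA13, NDUFB8, NDUFB9, NDUFB10, NDUFS3, NDUFC2, NDUFC2-KCTD14, COX5B, UQCRH and the genes not tested were named after their values were seen. Members and lists were chosen with earlier results of these data known. Some single-gene values are not reported here.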

Additional observations from a re-analysis of the deposited data

How the results depend on the processing

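RLE scaling, DESeq2 and scaling over nuclear genes moved no count of members by over 1.5 times. Of 138 changes of named members, RLE scaling altered the call of 0, DESeq2 of 6, nuclear scaling of 2, no filter of 4 and the replicate block of 9. The fit of 2 groups alone altered 34, removal of the GC trend 27, and removal of GC and length trends 36. Leaving out 1 library altered 11 (200 µM replicate 1) to 45 (200 µM replicate 3). Of 45 named calls, 14 kept their call in every alternative (2 of 15 at 100 µM, 5 of 15 at 200 µM and 7 of 15 between the doses). With no filter, 3 nuclear members were higher and 0 mitochondrial members lower from 100 to 200 µM, against 5 and 1. With 2 groups alone, 17 nuclear members were higher and 42 lower at 100 µM, 9 mitochondrial members were higher, and 8417 of all genes were called against 5181. At 200 µM that fit left 17 nuclear members lower, and between the doses 2 higher and 0 mitochondrial members lower. Same-numbered libraries did not deviate together (r -0.13 to 0.02, 0 of 9 pairs over 0.1). Deviations from means of 3 libraries cannot show whether such libraries shared a culture or preparation. With the replicate block 3 nuclear members were higher at 100 µM and 3 from 100 to 200 µM. The median of mitochondrial members at 200 µM against control was then 0.08, against 0.22 in the main fit. Leaving out 200 µM replicate 3 turned that median to -0.51. Between the doses the median was -0.19 in the main fit and -0.88 without that library.

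With the GC trend removed, 3 nuclear and 2 mitochondrial members were higher at 100 µM. Among named values called in the main fit or in that one, signs turned at 100 µM for COX8A (-0.26), CYC1 (-0.18) and UQCRB (0.11). With GC and length trends removed, 8 nuclear members were higher and 3 lower at 100 µM and 5 mitochondrial members higher. Among named values called in the main fit or in this one, signs turned at 100 µM for ATP5MG (0.11), NDUFB6 (0.11), NDUFV2 (0.17), SDHD (0.11) and UQCRB (0.030). At 200 µM that fit gave 1 nuclear member higher, 21 lower and 2 mitochondrial members higher, and between the doses 2 mitochondrial members lower. The cause was not tested.

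Leaving out each library in turn, nuclear members lower ranged from 12 to 39 at 100 µM, from 14 to 43 at 200 µM and from 13 (without 100 µM replicate 1) to 31 between the doses. Nuclear members higher ranged from 1 (without control replicate 1) to 16 (without 200 µM replicate 3), from 0 to 1 and from 2 to 5. Mitochondrial members higher ranged from 0 to 9 at 100 µM and from 0 to 1 at 200 µM. Those lower ranged from 0 to 7 at 200 µM and from 0 to 11 between the doses, the highest without 200 µM replicate 3. Calls over all genes at 100 µM ranged from 3469 to 7943. Sign turns are listed here only for values called with or without 200 µM replicate 3. Without that library the sign turned at 200 µM against control for MT-ATP6 (-0.56, with a highest value of 0.44 over the libraries left out), MT-ND1 (-0.51, highest 0.48), MT-ND2 (-0.44, highest 0.79) and MT-ND5 (-0.27, highest 0.64). It also turned against 100 µM for MT-CO1 (-0.38, highest 0.47), MT-ND2 (-0.88, highest 0.35), MT-ND4 (-0.74, highest 0.25) and MT-ND4L (-0.78, highest 0.58). Depth did not allow values for the isoforms at 0 counts.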

Other observations

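Nuclear regulators of mitochondrial genes moved in both directions. Of 18 genes, 5 were higher and 4 lower at 100 µM (median 0.06), 7 and 2 at 200 µM (0.44), and 6 and 4 from 100 to 200 µM (0.45), beside all genes 18.9% and 18.2%, 19.8% and 17.5%, and 22.4% and 21.9%. Leaving out 200 µM replicate 3 gave 6 and 5, 8 and 5, and 6 and 5, where all genes gave 28.7% and 27.5%, 27.9% and 25.9%, and 25.8% and 28.3%. PPARA, a receptor that induces genes of fatty acid oxidation, had 10.5, 9.23 and 9.35 CPM in control, 14.9, 14.9 and 13.3 at 100 µM and 28.2, 25.8 and 27.7 at 200 µM, higher at both doses (0.56 ± 0.10, adjusted p = 0.0026 and 1.49 ± 0.10, adjusted p = 1.2e-05). NRIP1, a corepressor of oxidative genes, had 162, 165 and 156 CPM in control, 127, 131 and 132 at 100 µM and 48.1, 38.7 and 60.2 at 200 µM, lower at 200 µM (-1.72 ± 0.14, adjusted p = 3.4e-05). NRF1, whose core letters were searched in the promoters, fell at 200 µM (-0.65 ± 0.13, adjusted p = 0.0038), from 20.9, 21.7 and 22.7 CPM in control, 20.3, 20.7 and 20.6 at 100 µM and 13.8, 16.4 and 11.5 at 200 µM. PPRC1, a coactivator, rose at 100 µM (0.81 ± 0.14, adjusted p = 0.0021), and PPARGC1A, encoding PGC-1 alpha, was at 0.172 to 0.476 CPM and was not called.

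The TCA cycle list (18 genes) held 5 higher and 2 lower at 100 µM (median 0.10), 3 and 5 at 200 µM (-0.02), and 3 and 8 between the doses (-0.23), beside all genes 18.9% and 18.2%, 19.8% and 17.5%, and 22.4% and 21.9%. The counts were 9 and 5, 7 and 6, and 3 and 9 without 200 µM replicate 3. Those shares of all genes were then 28.7% and 27.5%, 27.9% and 25.9%, and 25.8% and 28.3%. CS, citrate synthase, had 169, 173 and 168 CPM in control, 269.6, 268 and 263 at 100 µM and 185, 185 and 195 at 200 µM, higher at 100 µM (0.65 ± 0.06, adjusted p = 8.9e-05). MDH2, malate dehydrogenase, rose there too (0.58 ± 0.10, adjusted p = 0.0027), and OGDH rose at both doses (0.34 ± 0.08, adjusted p = 0.012 and 0.77 ± 0.08, adjusted p = 1.5e-04). Of 21 genes of the outer membrane and protein import, 2 were higher and 5 lower at 100 µM (0.05), 3 and 4 at 200 µM (-0.03), and 3 and 6 between the doses (-0.08), beside all genes 18.9% and 18.2%, 19.8% and 17.5%, and 22.4% and 21.9%. Dropping 200 µM replicate 3 gave 7 and 7, 6 and 5, and 7 and 8, where all genes had the shares just given for that fit. VDAC3, a channel of the outer membrane, was lower at 200 µM (-0.50 ± 0.07, adjusted p = 6.8e-04), and the import receptor TOMM22 likewise (-0.48 ± 0.09, adjusted p = 0.0024). Of 12 tested genes of mitophagy and dynamics, 4 were lower at 100 µM (-0.24), 1 was higher and 1 lower at 200 µM (-0.0046), and 6 were higher at 200 than at 100 µM (0.26), beside 18.2% lower, 19.8% and 17.5%, and 22.4% higher of all genes. When 200 µM replicate 3 was left out, 1 was higher and 7 lower at 100 µM (-0.21), 2 and 6 at 200 µM (-0.16), and 6 and 1 between the doses (0.18). Corresponding shares of all genes were 28.7% and 27.5%, 27.9% and 25.9%, and 25.8% and 28.3%. FUNDC1, a mitophagy receptor, had 32.3, 35.5 and 33.6 CPM in control, 22.8, 22.2 and 21.4 at 100 µM and 27.6, 24.3 and 34.5 at 200 µM, lower at 100 µM (-0.61 ± 0.13, adjusted p = 0.0052) and higher at 200 than at 100 µM (0.38 ± 0.13, adjusted p = 0.035; 0.22, adjusted p = 0.038, without replicate 3).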
